A study of Homo sapiens with 6 samples.

Results

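The short arm of chromosome 5 was described in 3 lists of ChIP-seq peaks from 2 human bronchial epithelial cell lines. Its members were chosen by the position of the deposited peaks. Every peak on chromosome 5 with a midpoint below 46 Mb (hg19) was taken, which gave 1702 of the 74158 peaks of the series. Of these, 8 were KLF5 peaks of Calu-3, a line derived from a lung adenocarcinoma, and 30 were KLF5 peaks of 16HBE14o-, an immortalised bronchial epithelial line. The other 1664 were CEBPB peaks of Calu-3. The arm was picked for description with the peak numbers already known, so its peak numbers are a description and were not tested.

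All 6 samples were of untreated cells grown in DMEM with fetal bovine serum. They formed 3 groups of 2: Calu-3 with KLF5, 16HBE14o- with KLF5, and Calu-3 with CEBPB. A rabbit KLF5 antibody served for 1 of the Calu-3 samples, and a commercial antibody for the other and for both 16HBE14o- samples, so line and antibody cannot be fully told apart. Per the series' design text a list combines both samples of a group, and no value below has an error between samples. Without read counts in the lists, the depth is unknown. Intervals are exact 95% intervals for counts (Poisson) or shares (Clopper-Pearson), and Newcombe intervals for differences of shares. They cover counting error only and treat peaks as independent, which neighbouring peaks are not.

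KLF5 is a Krüppel-like zinc finger transcription factor of epithelia that binds GC-rich DNA. CEBPB is a basic leucine zipper factor active in inflammation and in the differentiation of many cell types. The short arm of chromosome 5 carries the telomerase reverse transcriptase gene near its outer end and, further in, a gene-poor stretch with several type II cadherin genes, which encode cell adhesion proteins. This is background: no hg19 gene annotation or sequence was used here, so peaks are named by hg19 position and no gene was assigned to any of them.

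The 38 KLF5 peaks of the arm formed 33 loci when peaks with gaps of up to 50 kb were joined. Both lines had a peak at 2 of the loci, Calu-3 alone at 5 and 16HBE14o- alone at 26. The unequal numbers of 8 and 30 peaks bound this split, and loci were not counted outside the arm. Only 3 loci held more than 1 peak. The deposited signal value of each peak was used to rank peaks within a list, and ranks are given as percentiles, with 100 for the highest peak of the list.

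The 8 Calu-3 KLF5 peaks were each 280 bp wide. From the outer end inward, the first lay at 1555611 to 1555890 (signal 21.1, percentile 16.8). The second lay at 4995069 to 4995348 (signal 30.7, percentile 65.0), and the third at 10551544 to 10551823 (signal 21.9, percentile 20.9). The peaks at 1555611 and 10551544 were thus the weakest of the 8, and the only ones without the highest deposited score of 1000. The fourth, at 32684423 to 32684702, had a signal of 30.5 (percentile 64.0), and the fifth, at 36657718 to 36657997, had 32.5 (percentile 70.5). The sixth, at 37272735 to 37273014, had a signal of 42.9 (percentile 87.9). These 3 lay beyond a long stretch without KLF5 peaks. The last 2 lay close together, at 43428015 to 43428294 (signal 31.3, percentile 66.6) and at 43432597 to 43432876 (signal 49.8, percentile 93.4). The last was the strongest Calu-3 KLF5 peak of the arm and stood at rank 100 of 1510 in its list.

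Among the 30 peaks of 16HBE14o- KLF5, a single one stood far above the others. It lay at 37272787 to 37272984 with a signal of 158 (percentile 99.9, rank 5 of 3262). The next, at 2780475 to 2780818, had a signal of 83.9 (percentile 98.9). The others of the 5 highest were at 5422599 to 5422942 (signal 47.4), at 82265 to 82608 (signal 47.0) and at 14011597 to 14011940 (signal 39.8). Apart from the first 2, no 16HBE14o- peak of the arm was in the top 10% of its list.

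The remaining 16HBE14o- KLF5 peaks of the outer part of the arm began at 146076, 892811, 1113142, 1633962, 3306423, 6633234, 6712901, 10353753, 10761209, 14153246 and 14234306. Beyond the stretch without KLF5, they began at 32224090, 32443984, 32713890, 32714090, 34008162, 34915613, 35617660, 36745378, 37249445, 39074442, 39424858, 40835226, 43121571 and 43219225. Each of these 25 peaks was 344 bp wide, and their signals lay between 12.6 and 39.8. The lowest, at 32714090 to 32714433 (percentile 5.15), overlapped the one at 32713890 to 32714233 in the same list, so these 2 entries mark a single site.

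The bound at 46 Mb separated no close KLF5 peaks. The last Calu-3 KLF5 peak inside it was the one at 43432597, and the first outside began at 49963218 (percentile 9.40). For 16HBE14o- KLF5, the peak at 43219225 (percentile 36.2) was the last inside, and the first outside began at 54038219 (percentile 17.0). For CEBPB, a peak at 45976894 to 45977018 (percentile 30.6) was the last inside, and one at 46015679 to 46015847 (percentile 47.7) the first outside.

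Peak density was compared between the arm and the rest of chromosome 5, which extended for 134.7 Mb from the bound to the end of the last peak. Calu-3 KLF5 peaks were sparser on the arm, with 0.174 peaks per Mb (0.0751 to 0.343), against 0.468 per Mb (0.359 to 0.598) on the rest of the chromosome. The ratio was 0.372 (0.154 to 0.778). 16HBE14o- KLF5 had 0.652 peaks per Mb (0.440 to 0.931) on the arm and 0.490 per Mb (0.379 to 0.623) on the rest, a ratio of 1.33 (0.834 to 2.08) whose interval included 1. CEBPB had 36.2 peaks per Mb (34.5 to 38.0) on the arm and 34.3 per Mb (33.3 to 35.3) on the rest, a ratio of 1.06 (0.998 to 1.12).

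The KLF5 lists of both lines thus had ratios on opposite sides of 1. The arm made up 25.5% of the length compared. It held 11.3% (4.99 to 21.0) of the chromosome 5 peaks of Calu-3 KLF5, 31.25% (22.2 to 41.5) of those of 16HBE14o- KLF5 and 26.5% (25.4 to 27.6) of those of CEBPB. The Calu-3 KLF5 share was below the 16HBE14o- KLF5 share, with a difference of -19.98 points (-31.2 to -7.36), and differed from that of CEBPB by -15.2 points (-20.8 to -5.75). In the 50% of the Calu-3 KLF5 list with the higher signal, which left 6 peaks on the arm, the ratio was 0.651 (0.220 to 1.61), and its interval then included 1.

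**Figure D1:**
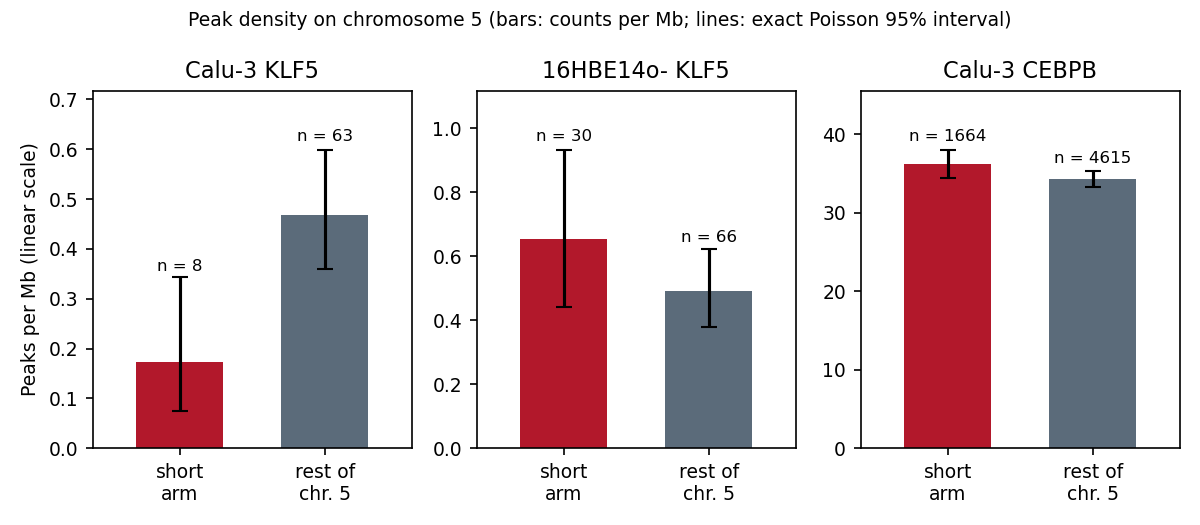
Peaks per Mb on the short arm (red) and on the rest of chromosome 5 (grey) in each list, on linear axes that start at 0 and differ between panels. Bars are densities of the pooled lists and lines are exact Poisson 95% intervals. Calu-3 KLF5 stood at 0.174 per Mb on the arm and 0.468 per Mb on the rest, whereas in both other lists the intervals of arm and rest overlapped.

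At the scale of 1 Mb, KLF5 peaks occupied few bins of the arm. Calu-3 KLF5 peaks lay in 7 of the 46 bins (15.2%, 6.34 to 28.9), compared with 28.9% (21.4 to 37.3) of the 135 bins of the rest of the chromosome and 24.6% of the 3107 bins of all chromosomes. 16HBE14o- KLF5 peaks lay in 16 of the 46 bins (34.8%, 21.4 to 50.2), compared with 28.9% of the bins of the rest and 35.2% of all bins, and the shares of 16HBE14o- therefore stood near the background. The bin with the most KLF5 peaks in 16HBE14o- was that from 32 to 33 Mb, with 4 peaks. The bins from 0 to 1 Mb and from 14 to 15 Mb had 3 each. In Calu-3 the only bin with more than 1 peak was that from 43 to 44 Mb, with 2 peaks, and 6 bins had 1.

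KLF5 peaks of both lines were absent from the middle of the arm. From 14234650 to 32224089, a stretch of 18.0 Mb, neither KLF5 list had a peak. The longest such stretch on the rest of chromosome 5 was 12.4 Mb, from 82644557 to 95048032. CEBPB peaks were present in the stretch of the arm, 448 in all at 24.9 per Mb (22.7 to 27.3), against 43.4 per Mb (41.0 to 45.9) elsewhere on the arm. Their median percentile of 47.7 in the stretch was also 47.7 elsewhere on the arm. The density elsewhere includes the first 3 Mb, which held 332 CEBPB peaks at 111 per Mb. Inward of the stretch the CEBPB density was 31.4 per Mb, and over all chromosomes it was 22.3 per Mb. The stretch was singled out after its values were seen.

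The parts of the arm on either side of this stretch had like densities of 16HBE14o- KLF5. Outward of it, 14.2 Mb held 3 Calu-3 KLF5 peaks (0.211 per Mb) and 15 of 16HBE14o- (1.05 per Mb). Inward of it, 13.8 Mb held 5 Calu-3 KLF5 peaks (0.363 per Mb) and 15 of 16HBE14o- (1.09 per Mb). CEBPB peaks numbered 783 in the outer part (55.0 per Mb) and 433 in the inner part (31.4 per Mb).

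Median signal ranks of KLF5 on the arm and on the rest of the chromosome had overlapping intervals in both lines. The 8 Calu-3 KLF5 peaks had a median percentile of 65.8 (order-statistic interval 16.8 to 93.4), against 43.1 (32.8 to 54.7) for the 63 peaks of the rest. The 30 16HBE14o- KLF5 peaks had a median percentile of 40.6 (24.3 to 62.7), against 49.02 (41.3 to 63.0) for the 66 peaks of the rest. Within the upper 50% of each list, a selection on the same signal that is ranked here, the differences, arm minus rest, were -23.1 points for Calu-3 and 18.5 points for 16HBE14o-. Percentiles were recomputed within that 50%, so these points are not on the scale of the medians of the full lists. The CEBPB medians were 47.7 and 44.3, and the value of 47.7 is itself a tie of 4384 CEBPB peaks with the same signal.

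Of the 8 Calu-3 KLF5 peaks, 6 had the highest score (75%, 34.9 to 96.8), compared with 39.7% (27.6 to 52.8) on the rest of the chromosome and 46% in the whole list. All 8 had a q-value of 0.05 or less, as did 82.5% of the peaks of the rest and 86.6% of the whole list. For 16HBE14o- KLF5, 9 of 30 peaks of the arm had the highest score (30%, 14.7 to 49.4), against 36.4% on the rest and 33.2% in the whole list. A q-value of 0.05 or less was given for 24 of the 30 (80.0%, 61.4 to 92.3), against 90.9% on the rest and 78.9% in the whole list. These shares all overlapped in their intervals.

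**Figure D2:**
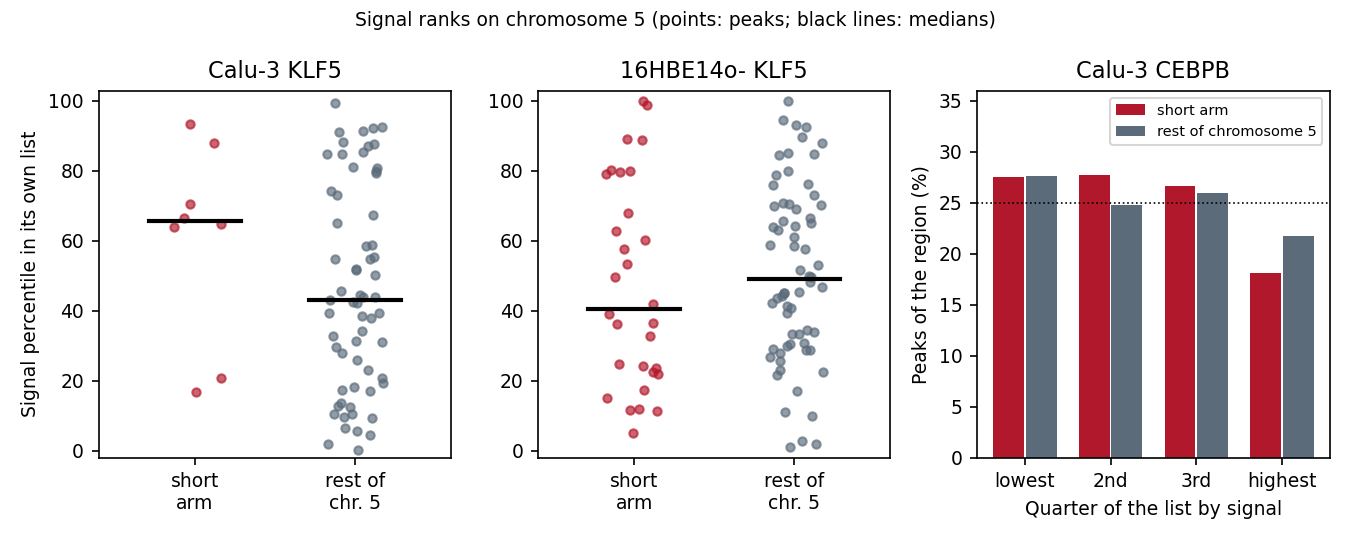
Signal percentile of each KLF5 peak on the short arm (red) and on the rest of chromosome 5 (grey), with black lines at the medians, and the share of CEBPB peaks of each region in each 25% of the CEBPB list by signal (dotted line at 25%). The KLF5 points of both regions overlapped over most of their range. The highest 25% of the CEBPB list held the fewest peaks of the arm, and also the fewest of the rest of the chromosome.

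The sites of both lines rarely met on the arm. A single Calu-3 KLF5 peak of 8 (12.5%, 0.316 to 52.7) overlapped a 16HBE14o- KLF5 peak, compared with 14.3% (6.75 to 25.4) on the rest of the chromosome and 23.6% of the whole Calu-3 list. Of the 30 16HBE14o- peaks 1 overlapped a Calu-3 KLF5 peak (3.33%, 0.0844 to 17.2), compared with 10.6% (4.37 to 20.6) on the rest and 11.3% of the whole list. The differences between arm and rest were -1.79 points (-16.6 to 33.4) for Calu-3 and -7.27 points (-17.4 to 7.11) for 16HBE14o-, so neither could be told from 0 at these numbers.

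The shared site was the pair of peaks at 37272735 and 37272787, whose midpoints lay 11 bp apart. It combined the second strongest Calu-3 KLF5 peak of the arm with the strongest of 16HBE14o-. A weaker 16HBE14o- peak at 37249445 (percentile 12.0) belonged to the same locus, which spanned 23570 bp. The nearest CEBPB peak was 99212 bp from the Calu-3 KLF5 peak. The other locus with peaks of both lines spanned 32684423 to 32714433, where the Calu-3 peak and the nearest 16HBE14o- peak were 29499 bp apart and did not overlap.

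The KLF5 peaks of each line were also set against those of the other at a distance of up to 1 Mb. All 8 Calu-3 KLF5 peaks had a 16HBE14o- KLF5 peak within 1 Mb (100%, 63.1 to 100), compared with 77.8% (65.5 to 87.3) of the Calu-3 KLF5 peaks of the rest of the chromosome and 84.2% of the whole list. Of the 30 16HBE14o- KLF5 peaks, 15 had a Calu-3 KLF5 peak within 1 Mb (50%, 31.3 to 68.7), compared with 63.6% (50.9 to 75.1) on the rest and 75.2% (73.7 to 76.7) of the whole list. For both lines the interval of the arm overlapped that of the rest, and for 16HBE14o- it lay below that of the whole list. The low number of Calu-3 KLF5 peaks on the arm limits the 16HBE14o- share. The median distances on the arm were 143 kb from a Calu-3 and 851 kb from a 16HBE14o- KLF5 peak. Across the 46 bins of the arm the counts of both KLF5 lists had a Spearman rho of 0.49, and across the 135 bins of the rest a rho of 0.37, both as descriptions. The bins of the arm share the stretch without KLF5, and 39 of them had no Calu-3 peak.

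CEBPB peaks of Calu-3 overlapped 15 of the 38 KLF5 peaks of the arm. For Calu-3 KLF5 this was 5 of 8 peaks (62.5%, 24.5 to 91.5), compared with 49.2% (36.4 to 62.1) on the rest of the chromosome and 43.7% of the whole list. For 16HBE14o- KLF5 it was 10 of 30 (33.3%, 17.3 to 52.8), compared with 33.3% (22.2 to 46.01) on the rest and 22.4% of the whole list. The differences between arm and rest, 13.3 points (-20.8 to 39.9) and 0 points (-18.5 to 20.6), could not be told from 0. The 16HBE14o- count depended on the rule. It was 4 of 24 with lists cut at q-values of 0.05 and 0 of 12 with lists of 1510 peaks. With summits within 100 bp it was 5 of 30, and with gaps of up to 1000 bp 13 of 30. Of the 10 CEBPB peaks over these sites, 4 had a q-value of 0.05 or less, against 13 of 22 on the rest. The median distance to the nearest CEBPB peak was 0.0793 kb for the Calu-3 KLF5 peaks of the arm and 0.290 kb for those of the rest. For 16HBE14o- KLF5 it was 1.70 kb on the arm and 4.16 kb on the rest.

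The CEBPB peaks over Calu-3 KLF5 sites were strong. The one at 1555370 to 1555888 had percentile 98.3, and that at 4995104 to 4995299 had percentile 97.1. The one at 36657675 to 36657966 had percentile 99.05. Over the pair of KLF5 peaks at 43428015 and 43432597, the CEBPB peaks had percentiles 92.2 and 99.4. All 5 were thus in the top 10% of the CEBPB list (100%, 47.8 to 100), as were 20 of the 29 CEBPB peaks over Calu-3 KLF5 sites of the rest of the chromosome (69.0%, 49.2 to 84.7). The KLF5 peak at 1555611, weak in its own list at percentile 16.8, lay under a strong CEBPB peak.

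The CEBPB peaks over 16HBE14o- KLF5 sites were mostly weak. Their median percentile was 29.7 with a range of 4.83 to 93.8, against 38.7 over the 22 such peaks of the rest. Of the 10, 2 were in the top 10% of the CEBPB list (20%, 2.52 to 55.6). These lay at 1633896 to 1634223 (percentile 91.7) and at 34008241 to 34008460 (percentile 93.8). Under the strong 16HBE14o- KLF5 peak at 2780475 the CEBPB peak was at percentile 59.2. CEBPB was profiled in Calu-3 only among the samples analysed here, so these values set a factor of one line against sites of the other.

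**Figure D3:**
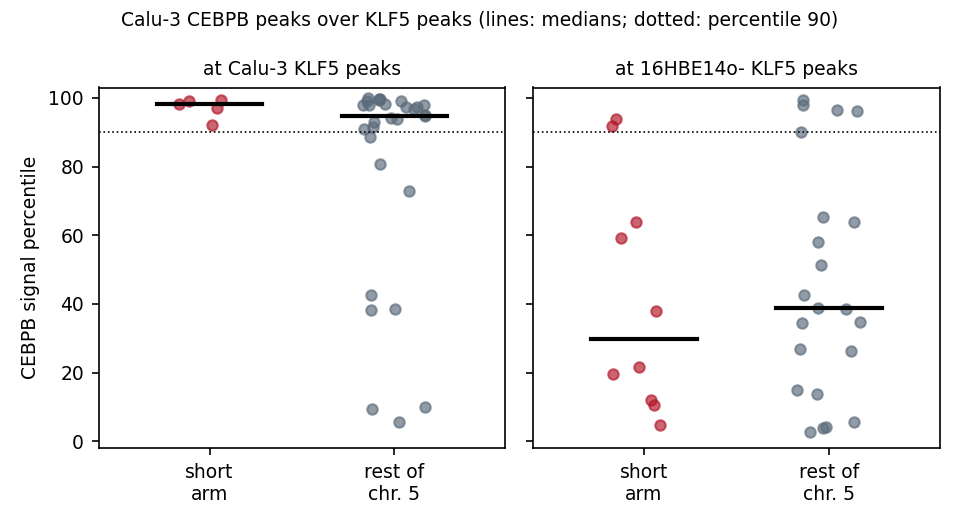
Signal percentile in the CEBPB list of each Calu-3 CEBPB peak that overlapped a KLF5 peak of Calu-3 or of 16HBE14o-, on the short arm (red) and on the rest of chromosome 5 (grey), with black lines at the medians and a dotted line at percentile 90. All 5 red points at Calu-3 KLF5 peaks were above the dotted line, and 2 of the 10 at 16HBE14o- KLF5 peaks were.

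The outer end of the arm held more CEBPB peaks than any other place in the list at this scale. The bin from 2 to 3 Mb had 135 CEBPB peaks, that from 1 to 2 Mb had 108 and that from 0 to 1 Mb had 89. These were the 3 highest counts of all 3107 bins, whose median was 22. The fourth, on chromosome 7 from 53 to 54 Mb, had 84. Together the first 3 Mb of the arm held 332 CEBPB peaks, or 111 per Mb (99.1 to 123). The rest of the arm held 1332, or 31.0 per Mb (29.3 to 32.7).

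This density was spread along the whole of the first 3 Mb. Each of its 30 windows of 100 kb held at least 3 CEBPB peaks, with a median of 10.5 and a maximum of 19. Over the rest of the arm the median window held 3 and the maximum was 11, and 42 of 430 windows were empty. The ends of other chromosomes did not show such a count. Over 47 other ends, counted as the first 3 Mb or the last 3 Mb up to the last CEBPB peak, the median was 82 peaks and the highest was 182. The first 3 Mb of chromosomes 13, 14, 15, 21, 22 and Y held none, and whether peaks could be called there was not examined. These ends count among the 47 and lower the median, but do not affect the highest count.

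The CEBPB peaks of the first 3 Mb were many but seldom among the strongest. Only 4 of 332 were in the top 10% of the list by signal (1.20%, 0.329 to 3.06), where the whole list has 10%. On the rest of the arm this share was also below 10%, at 5.11% (3.99 to 6.43). The median percentile of the peaks of the first 3 Mb was 40.8 (36.8 to 50.9). A q-value of 0.05 or less was given for 118 of them (35.5%, 30.4 to 41.0). The share was 38.1% (35.4 to 40.7) on the rest of the arm and 46.3% in the whole list. With that filter the bin from 2 to 3 Mb still had the highest count of all bins, 51, shared with 1 other bin, whereas the bins from 0 to 1 Mb and from 1 to 2 Mb, with 35 and 32 peaks, stood at rank 12 and rank 26. By the top 10% alone, the bins from 0 to 1 Mb and from 1 to 2 Mb had 2 peaks each and that from 2 to 3 Mb had 0, against a median of 2 over all bins.

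**Figure D4:**
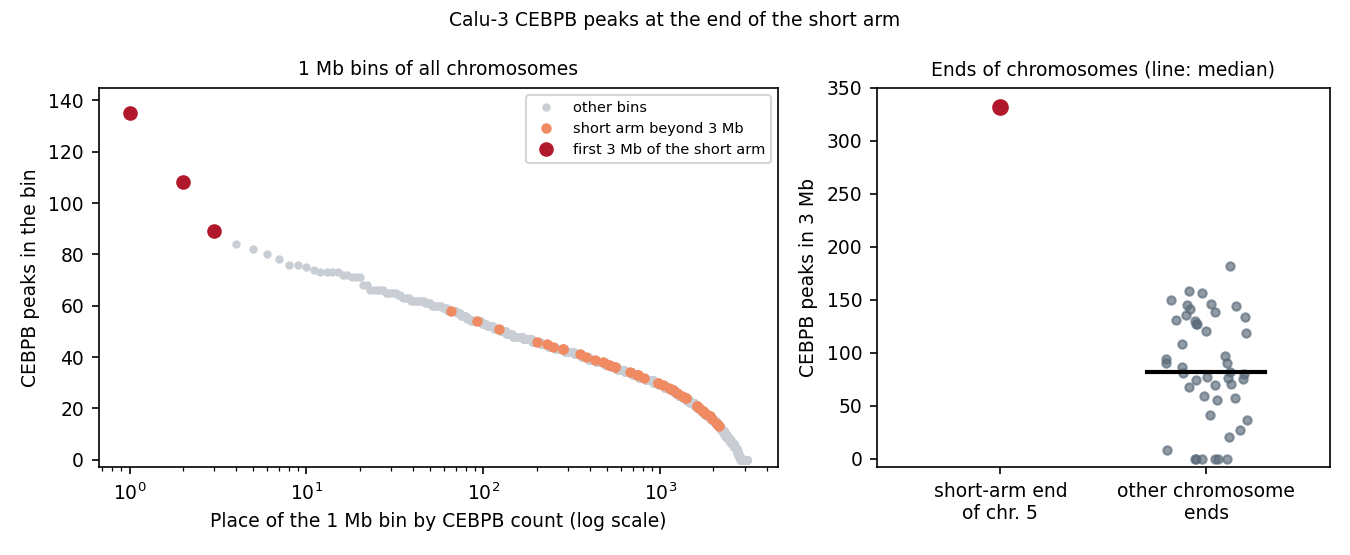
Left, CEBPB peaks in each 1 Mb bin of all chromosomes, ordered by count (log scale on the horizontal axis), with the first 3 Mb of the short arm in dark red and its other bins in orange. Right, CEBPB peaks in the outermost 3 Mb of the short arm and of 47 other chromosome ends (black line: median). The 3 dark red bins, at 135, 108 and 89 peaks, were the highest of all, and the arm's end, at 332 peaks, was above the other ends, which reached 182.

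Without the first 3 Mb, the density of CEBPB on the arm turned from slightly above to below that of the rest of the chromosome. The ratio was then 0.904 (0.850 to 0.961), compared with 1.06 over the whole arm. This removal was chosen after the counts were seen. KLF5 peaks were also present at the outer end. Calu-3 KLF5 had 1 peak in the first 3 Mb and 7 on the rest of the arm, and 16HBE14o- KLF5 had 6 (2 per Mb) and 24 (0.558 per Mb). Without the first 3 Mb the density ratio of arm to rest was 0.348 (0.134 to 0.760) for Calu-3 KLF5 and 1.14 (0.683 to 1.84) for 16HBE14o- KLF5.

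The overlap of KLF5 with CEBPB was also counted in the first 3 Mb and on the rest of the arm. For Calu-3 KLF5 a CEBPB peak lay over the single peak of the first 3 Mb, and over 4 of the 7 on the rest of the arm (57.1%, 18.4 to 90.1). For 16HBE14o- KLF5 it lay over 5 of the 6 peaks of the first 3 Mb (83.3%, 35.9 to 99.6), compared with 5 of 24 (20.8%, 7.13 to 42.2) on the rest of the arm. The number of CEBPB peaks within 50 kb was 17 around the 16HBE14o- peak at 1113142 and 18 around that at 2780475, and 0 to 18 around all 30, with a median of 4. The intervals of the 16HBE14o- shares overlapped, the bound at 3 Mb was set after the counts were seen, and the part of CEBPB density in these overlaps was not tested.

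Strong CEBPB peaks were rarer on the arm, in a class set after the data had been seen. The top 10% of the list held 72 of the 1664 CEBPB peaks of the arm (4.33%, 3.401 to 5.42), compared with 379 of 4615 (8.21%, 7.44 to 9.04) on the rest of the chromosome. The difference was -3.89 points (-5.09 to -2.56), and -3.11 points (-4.45 to -1.59) without the first 3 Mb. Per Mb, the arm had 1.57 such peaks and the rest had 2.81, a ratio of 0.556 (0.426 to 0.717). A q-value of 0.05 or less was given for 37.6% (35.2 to 39.9) of the CEBPB peaks of the arm and 44.2% (42.7 to 45.6) of those of the rest.

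The strongest CEBPB peak of the arm lay at 23466661 to 23467019 (signal 23.2, percentile 99.8, rank 119 of 69386). The second, at 32211315 to 32211637 (signal 21.6), was 12.8 kb from the 16HBE14o- KLF5 peak at 32224090. The third was at 16815505 to 16815841 (signal 20.5) and the fifth at 15008678 to 15008926 (signal 16.5). These 4 all lay inside the stretch without KLF5, the second at its inner edge. Only the fourth, at 43432574 to 43432965 (signal 16.9), had a KLF5 peak over it, which was the strongest Calu-3 KLF5 peak of the arm. In the stretch, 25 of the 448 CEBPB peaks were in the top 10% (5.58%), against 3.87% elsewhere on the arm.

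Few CEBPB peaks of the arm had a KLF5 peak. Calu-3 KLF5 overlapped 5 of the 1664 (0.3005%, 0.0976 to 0.6998), compared with 0.628% (0.421 to 0.901) on the rest of the chromosome and 0.938% of the whole list. 16HBE14o- KLF5 overlapped 10 (0.601%, 0.289 to 1.102), compared with 0.477% (0.299 to 0.721) on the rest and 1.03% of the whole list. The number of KLF5 peaks bounds these shares. Bins with a KLF5 peak of either line had a median of 37 CEBPB peaks, against 27 in the 29 bins of the arm without one, with ranges of 13 to 135 and 14 to 54. All bins of the CEBPB-dense first 3 Mb had a KLF5 peak, and the 29 include those of the stretch without KLF5. Both features were singled out after their values were seen, and their part in this difference was not tested. On the rest of the chromosome the medians were 33 with a KLF5 peak and 34 without.

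The arm was also set beside 2 regions of like size. These had been picked for their peak numbers, so the order of arm and regions is a description only. For Calu-3 KLF5 the arm had 0.174 per Mb, against 3.24 on chromosome 3 beyond 150 Mb, 2.43 on chromosome 20 beyond 25 Mb and 0.486 over all chromosomes. For 16HBE14o- KLF5 the arm had 0.652 per Mb, against 0.544 on chromosome 3 beyond 150 Mb, 11.7 on chromosome 20 beyond 25 Mb and 1.05 over all chromosomes. For CEBPB the arm had 36.2 per Mb, against 50.5, 35.8 and 22.3 in the same order. The arm thus exceeded the density over all chromosomes for CEBPB and was below it for KLF5 of both lines. These directions were not particular to the arm. The rest of chromosome 5 had 34.3 per Mb for CEBPB, 0.490 for 16HBE14o- KLF5 and 0.468 (0.359 to 0.598) for Calu-3 KLF5. Of the 3107 bins of all chromosomes, 262 held no CEBPB peak.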

How the data were processed

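Peaks of 2 factors were analysed in 3 deposited lists, each made from both samples of its group per the series' design text. Positions were on hg19, per the file headers. Per the file headers, all lists came out of an irreproducible discovery rate (IDR) procedure, and the 2 for KLF5 are its optimal sets. The alignment, peak calling and control are not given in the sources used here. The authors deposited for each peak a signal value, whose scale is not given, a score and a q-value as −log10. These are the authors' values and were used only to rank or filter peaks within a list.

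The members and the loci were chosen with earlier results of these data known. Peaks were assigned by midpoint and written with starts counted from 1, and overlaps needed 1 bp. The rest of chromosome 5 ran from the bound to the end of its last peak. Loci joined KLF5 peaks with gaps of up to 50 kb. The text names the loci with peaks of both lines, the 5 peaks of highest signal of each list and the 3 bins with most peaks, and gives the other KLF5 peaks by position. No gene was assigned, because no hg19 annotation was used. No test was made, since each group is 1 pooled list and regions are not replicates. Overlap and interval functions were tested on simulated data. Alternatives varied thresholds, list lengths, bounds, bins and the overlap rule. Python 3.11.15 with numpy 2.4.6, scipy 1.17.1 and pandas 2.3.3 was used.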

Additional observations from a re-analysis of the deposited data

Results flagged for a closer look

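The density of KLF5 peaks on the short arm of chromosome 5 relative to the rest of the chromosome lay on opposite sides of 1 in the lines, at 0.372 in Calu-3 and 1.33 in 16HBE14o-. What marked this result was the opposite direction of the same comparison in 2 cell lines, and the difference was not tested. The interval of the 16HBE14o- ratio included 1. The Calu-3 list was made in part with another antibody, whose part in the result was not tested.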

How the results depend on the processing

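Of 104 values under alternatives for 15 results, 89 stayed within the interval of the value as reported and 15 moved beyond it. Some of the 89 could not move, since lists of 1510 peaks leave the Calu-3 KLF5 list as it is and merging changed no CEBPB value. Wide intervals also keep values in: the Calu-3 KLF5 median percentile difference of 22.6 points (-26.3 to 50.3) became -23.1 in the 50% with the higher signal. Wherever a list was cut, percentiles were recomputed within the cut list, so such points are not on the scale of the full list. For median differences the interval was that of the arm's median less a fixed median of the rest. It leaves out the error of the rest, and it decided which of these differences count as moved. The Calu-3 KLF5 density ratio stayed below 1, at 0.313 to 0.651, and that of 16HBE14o- KLF5 above 1, at 1.14 to 1.37, in every alternative run. The CEBPB density ratio was 0.991 in the 50% of the list with the higher signal, 0.898 with q-values of 0.05 or less, 0.601 with lists of 1510 peaks, 0.881 without the first 5 Mb and 0.904 without the first 3 Mb. The percent of the CEBPB list on the arm, 2.40, was 2.18, 1.95 and 1.06 under the first 3 of these. The CEBPB median percentile, arm minus rest, 3.43 points as reported, was -11.7, -2.17 and -6.85 under the same 3 and -9.69 with ranks by q-value, and the cause was not tested. For 16HBE14o- KLF5 that difference, -8.45 points as reported, was 18.5 in the 50% with the higher signal and 19.4 with lists of 1510 peaks. With bins of 2 Mb, 52.2% of bins held a 16HBE14o- KLF5 peak, since wider bins hold more peaks. The alternative without the first 3 Mb was chosen after seeing the data. Leaving out a sample was not possible, because lists of a single sample were not used here. No paired analysis was possible because each group is 1 list made from both of its samples. Unknown depth limits all counts: a site without a peak need not lack binding, and with 8 Calu-3 KLF5 peaks the intervals of shares are wide.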
